A study of Mus musculus with 49 samples.

Results

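Cas9 lesions made with sgRNA1 or with sgRNA2, guides whose targets overlap on opposite strands, were compared at the same integrated reporters (IRs) of a mouse embryonic stem cell line. The comparison used 2 of the 49 samples of the series, 1 for each guide, and the reads whose barcode is among the 36 that mark the IRs of this line. The cells are EBRTcH3 (EStTA) mES cells, which express the tetracycline-controlled transactivator from ROSA26. The line is a single clone, every IR carries the same reporter driven by the PGK promoter, and each IR sits at its own place in the genome with its own barcode. Both groups share this genotype and differ in the guide. The authors did each Cas9 assay in triplicate and merged the replicates. The 36 IRs are therefore the units here, no replicate error is available, and no test between guides was possible.

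Cas9 cuts both DNA strands a few bases upstream of the PAM, the short motif next to the target that Cas9 needs for binding. Non-homologous end joining seals such ends and often leaves small deletions or insertions. Microhomology-mediated end joining pairs short repeats on either side of the break and loses a copy of the repeat with the bases between.

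The guides are shown in full because the lesions below are described by their bases around the cut. Each is written 5′ to 3′ with its PAM in capitals, and the third line is the sgRNA1 target read along the sense strand, where its PAM comes first.
sgRNA1: gccgagagtgatcccggcggCGG
sgRNA2: cgccgggatcactctcggcaTGG
sgRNA1 target on the sense strand: CCGccgccgggatcactctcggc
The targets share 19 bases, and the PAMs lie on the outer sides of the shared stretch. The expected cut, between bases 3 and 4 upstream of the PAM (the 3|4 site), falls in a repeat of the triplet CCG for sgRNA1 and between a pair of G bases for sgRNA2. The cuts are 15 bp apart, and the bases between them lie on the PAM-distal side of both. Positions below are on the sense strand, and a lesion is described by the sense-strand bases it removes or adds unless another strand is named.

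The sgRNA1 sample held 198078 reads of the 36 IRs, with 2105 to 11160 reads per IR (median 5424). The sgRNA2 sample held 169141 reads, with 1581 to 9618 per IR (median 4609). Reads carry no molecular identifier, so the 95% Wilson intervals printed beside shares hold only the error of counting reads. Sizes, positions and sequences come from reads with a single deletion (91523 with sgRNA1, 70822 with sgRNA2) or a single insertion (4369 and 8389). Nearly all single deletions lay at the cut of the guide that the label names. Of them, 0.984% ± 0.314 (mean and SD over 36 IRs) with sgRNA1 and 1.19% ± 0.359 with sgRNA2 came no closer than 2 bp to the guide's own cut.

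The first question was whether guides on nearly the same DNA give the same lesions at the same place in the genome. They gave almost the same amount of mutated reads and a different mixture. Mutation frequency, the share of reads in any class but wild-type, was 1.77 points higher with sgRNA2 (SD of the difference over IRs 1.34). It was higher with sgRNA2 at 32 of 36 IRs, but the intervals of the guides were apart at 7 of them, and counting alone gives such differences an SD of 1.03. The difference was 1.12 points without complex reads. It was 0.796 points without reads that carry a lesion at each guide's cut, a setting added after the data were seen. Both settings leave out only mutated reads, and more of them with sgRNA2, so a smaller difference follows from the settings themselves. Reads with a lesion at each cut are mutated already by the lesion at the guide's own cut. Deletion frequency was lower with sgRNA2 at 36 of 36 IRs, with a mean difference of -2.69 points (SD 1.29). The intervals were apart at 16 of them, and counting alone gives an SD of 1.03. Insertion frequency was higher with sgRNA2 at 36 of 36 IRs, by 3.05 points (SD 0.960), and the intervals were apart at all 36. The complex class is the authors' class for reads with a mix of mutations. Complex frequency was 1.74% ± 0.255 with sgRNA1 and 3.15% ± 0.633 with sgRNA2. It was higher with sgRNA2 at 35 of 36 IRs, by 1.41 points (SD 0.632). The difference was 0.766 points without the reads that carry a lesion at each cut. That setting leaves out 1249 complex reads with sgRNA2 and 47 with sgRNA1. Among mutated reads alone, deletions made up 92.0% ± 1.15 with sgRNA1 and 83.6% ± 3.32 with sgRNA2, insertions 4.55% ± 0.763 and 10.4% ± 3.22, and complex reads 3.45% ± 0.650 and 5.98% ± 1.11.

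**Figure D1:**
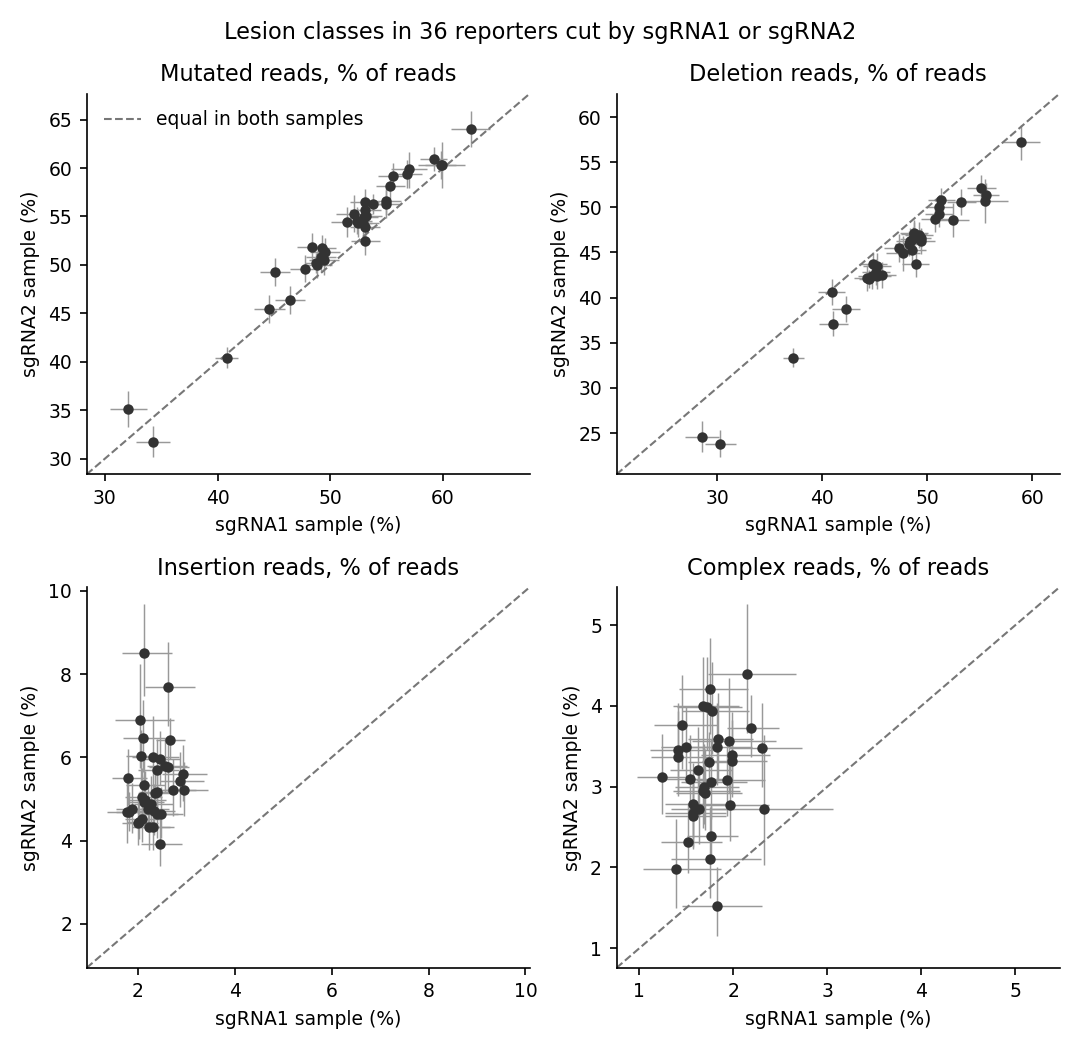
Percentage of reads per IR that were mutated, or in the deletion, insertion or complex class, with the sgRNA1 sample on the horizontal and the sgRNA2 sample on the vertical axis. Each point is 1 of 36 IRs with 95% Wilson intervals, the dashed line marks equal values, and all 36 points lie below it for deletions and above it for insertions.

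BC_35, in an intron of Ndst3 (mm9 chromosome 3, position 123391370), was the most mutated on average. There sgRNA1 gave 62.5% mutated reads (95% Wilson interval 60.7 to 64.2) and sgRNA2 64.1% (62.2 to 65.9). BC_26, an IR without a mapped position, had the lowest average and went its own way in several measures. Its mutation frequency was 34.2% (32.8 to 35.8) with sgRNA1 and 31.8% (30.2 to 33.4) with sgRNA2, the most negative difference of the 36 (-2.46 points). It also had the most negative difference in deletion frequency, -6.51 points, from 30.3% (28.9 to 31.8) with sgRNA1 to 23.8% (22.3 to 25.3) with sgRNA2. For complex reads it was the only IR that was not higher with sgRNA2, at 1.83% (1.45 to 2.30) with sgRNA1 and 1.52% (1.15 to 2.01) with sgRNA2. At the other end stood BC_7, also unmapped, where mutation frequency went from 45.1% (43.8 to 46.4) with sgRNA1 to 49.3% (47.8 to 50.7) with sgRNA2. Its deletion frequency, 40.9% (39.6 to 42.2) and 40.6% (39.2 to 42.1), was the closest to equal.

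Insertion frequency spread more over IRs with sgRNA2 (SD 0.961) than with sgRNA1 (SD 0.307). BC_30, unmapped as well, had 2.14% insertion reads (1.68 to 2.71) with sgRNA1 and 8.51% (7.48 to 9.68) with sgRNA2. The smallest increase was at BC_24, between genes on mm9 chromosome 12 (position 59340290), with 2.46% (2.07 to 2.92) and 3.91% (3.39 to 4.51). BC_18, between genes on mm9 chromosome 10 (position 90602024), had the largest increase in complex reads, from 1.75% (1.43 to 2.16) with sgRNA1 to 4.21% (3.66 to 4.84) with sgRNA2. Across the 36 IRs, complex frequency with sgRNA1 and sgRNA2 had a Pearson r of 0.204 and a Spearman rho of 0.216, and insertion frequency an r of 0.164, against 0.981 for mutation frequency. For complex reads, counting alone gives an SD over IRs of 0.186 points with sgRNA1, where 0.255 was seen, and of 0.268 with sgRNA2, where 0.633 was seen. For insertions these values were 0.211 and 0.307 with sgRNA1, and 0.354 and 0.961 with sgRNA2. The part of read number in the low r values was not tested. This and the further r values are descriptions over IRs of 1 clone with the same reporter sequence, whose points share 1 library per guide.

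Deletion sizes differed widely between the guides. With sgRNA1, 41.6% ± 2.62 of single deletions removed 3 bp, against 5.95% ± 0.904 with sgRNA2. The share was lower with sgRNA2 at 36 of 36 IRs, and the difference of -35.6 points (SD 2.34) ranged from -44.5 at BC_26 to -32.2 at BC_18. All other sizes up to 9 bp had a higher mean share with sgRNA2. Deletions of 1 bp made up 7.94% ± 1.05 with sgRNA1 and 13.4% ± 2.75 with sgRNA2, and deletions of 2 bp 7.56% ± 0.981 and 12.2% ± 1.36. For 9 bp the shares were 1.61% ± 0.453 and 7.60% ± 0.888, and for 7 bp 2.00% ± 0.506 and 6.97% ± 1.51, with sgRNA2 higher at 36 of 36 IRs for both. Deletions of 10 bp were at 1.63% ± 0.505 and 1.32% ± 0.471. The median size was 3 bp with sgRNA1 and 6 bp with sgRNA2.

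Sizes that keep a reading frame, the multiples of 3, made up 60.1% ± 2.17 of single deletions with sgRNA1 and 32.2% ± 1.77 with sgRNA2. Apart from the 3-bp deletions themselves, the shares were 31.7% ± 3.26 and 27.9% ± 2.05 of the deletions that were left, a difference of -3.76 points.

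**Figure D2:**
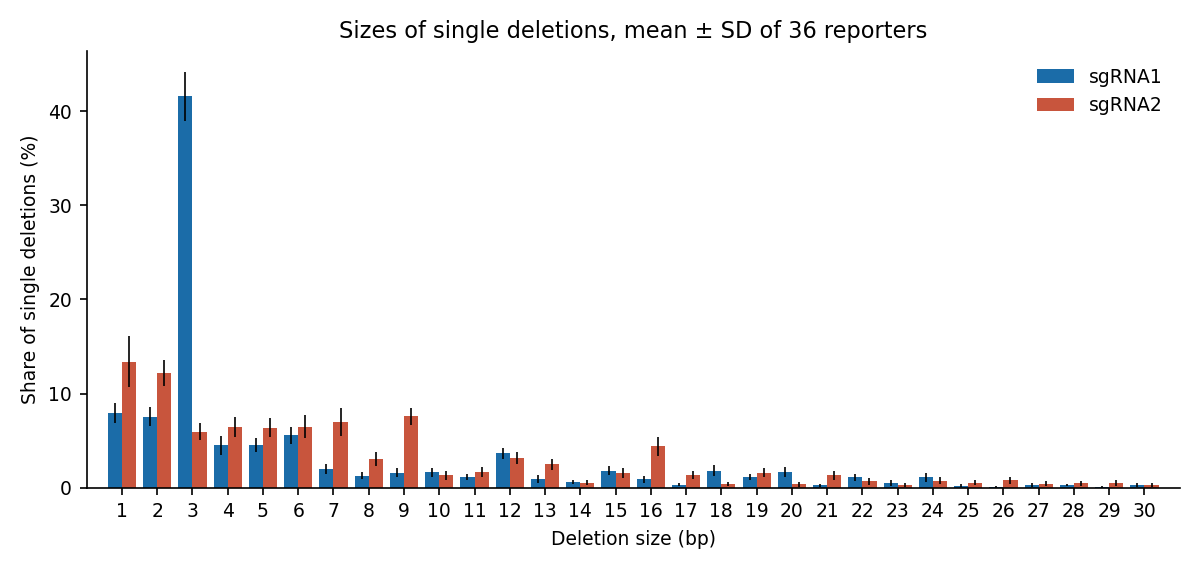
Share of single deletions of each size from 1 to 30 bp, as the mean of 36 IRs with the SD over IRs, for sgRNA1 and sgRNA2. The sgRNA1 bar at 3 bp reaches 41.6%, while the largest sgRNA2 bar, at 1 bp, is at 13.4%.

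Long deletions were more frequent with sgRNA2. Deletions of 10 bp or longer were 23.4% ± 3.52 of single deletions with sgRNA1 and 31.4% ± 4.24 with sgRNA2, a difference of 8.06 points (SD 2.21) that was positive at 36 of 36 IRs. Among single deletions, this order depends on the 3-bp deletions in the denominator. Over all reads it stayed, with 22174 deletions of 10 bp or longer in 169141 reads with sgRNA2 and 21377 in 198078 with sgRNA1. With 3-bp deletions left out, a setting added after the data were seen, deletions of 10 bp or longer were 39.9% of the rest with sgRNA1 and 33.4% with sgRNA2, and the difference was negative at 36 of 36 IRs (-6.49 points). The reads start 34 bases before the sgRNA1 cut and 49 bases before the sgRNA2 cut. Deletions reaching over 14 bases before the cut were 3.41% ± 0.997 with sgRNA1 and 8.08% ± 2.02 with sgRNA2. Without them, also a setting added after the data were seen, the difference was 4.88 points. The bases before the cut are on the PAM side for sgRNA1 and on the PAM-distal side for sgRNA2, so this setting leaves out deletions of unlike sides. The IRs kept their rank for this share, with r = 0.854 and rho = 0.862 between guides over 36 IRs, and r = 0.850 once the 2 IRs farthest from the sgRNA1 median were left out. The IR with the fewest reads in single deletions had 871 with sgRNA1 and 585 with sgRNA2.

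A small set of deletions carried most of the sgRNA1 spectrum. The loss of CCG, a unit of the triplet repeat at the cut, was 41.1% (40.8 to 41.5) of its single deletions and 41.2% ± 2.59 over IRs, from 37.2% at BC_2 to 49.7% at BC_26. It has 7 placements in the reporter that leave the same sequence. Next came the loss of C, 6.20% (6.05 to 6.36), of CC, 4.89% (4.75 to 5.03), and of CCGCCG, a pair of repeat units, 4.37% (4.24 to 4.50). Then followed CCGGG with 3.65% (3.53 to 3.77), CCGG with 3.09% (2.98 to 3.21) and GC with 1.92% (1.83 to 2.01). The last of the 10 most frequent were a 20-bp deletion with 1.46% (1.39 to 1.54) and deletions of 12 bp with 1.37% (1.29 to 1.45) and 1.25% (1.18 to 1.32). The 10 together made up 69.3% of single deletions, and 3 of them were enough to pass 50%.

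The sgRNA2 spectrum was flatter. The loss of a G of the pair at the cut was 11.3% (11.1 to 11.6) of its single deletions, from 9.30% at BC_8 to 23.3% at BC_26. The loss of CG followed with 7.22% (7.03 to 7.42), then a 9-bp deletion with 4.77% (4.61 to 4.93), CTCG with 3.53% (3.39 to 3.66) and a 16-bp deletion with 3.16% (3.04 to 3.30). The loss of CGGCAT had 2.44% (2.33 to 2.56), that of TCTCGGC 2.41% (2.30 to 2.52) and that of TCG 2.39% (2.28 to 2.50). The loss of TCTCG had 2.35% (2.24 to 2.46) and that of ACTCTCG, the last of the 10, had 2.22% (2.11 to 2.33). The 10 made up 41.8%, and 15 were needed to pass 50%. The 10 deletions of sgRNA1 were 0.0664% of single deletions in the sgRNA2 sample, and those of sgRNA2 were 0.0677% in the sgRNA1 sample. As effective number, the inverse of the summed squared shares, the spectra held 5.50 deletions with sgRNA1 and 33.4 with sgRNA2. Without each guide's most frequent deletion, these numbers were 27.5 and 45.9.

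The loss of bases peaked beside each cut. At the deposited placement, 42.5% of all reads with sgRNA1 lacked the base 2 bp past its cut, and with sgRNA2, 31.1% lacked the base 14 bp past the sgRNA1 cut, which lies just before the sgRNA2 cut. The side of the sgRNA1 peak depends on where the repeat deletions are placed. With each deletion as far left as its sequence allows, a placement tried after the data were seen, the peak was at 31.3% on the PAM side of the sgRNA1 cut, and with sgRNA2 it was at 34.8% at the last base before its cut. Deletions that spanned the other guide's cut in every placement were 3.56% ± 0.931 of single deletions with sgRNA1 and 6.59% ± 1.94 with sgRNA2.

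**Figure D3:**
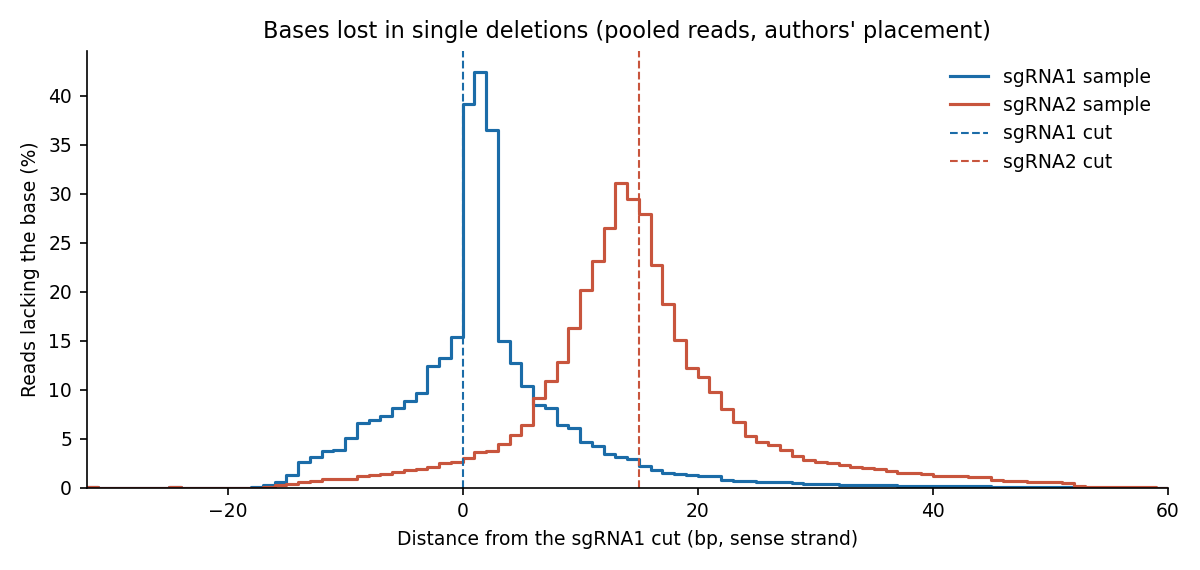
Percentage of all reads of the 36 IRs (pooled) that lack each base because of a single deletion, by distance from the sgRNA1 cut on the sense strand, with deletions at their deposited placement. Dashed lines mark the cuts, 15 bp apart. At this placement the curves peak at 42.5% with sgRNA1 and 31.1% with sgRNA2.

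Microhomology, counted as the bases by which a deletion can be shifted without changing the sequence it leaves, differed with the repeat. Single deletions with at least 2 such bases were 58.6% ± 2.60 with sgRNA1 and 28.9% ± 3.41 with sgRNA2, lower with sgRNA2 at 36 of 36 IRs (difference -29.7 points, SD 3.84). Deletions without any were 15.5% ± 1.20 with sgRNA1 and 40.7% ± 2.27 with sgRNA2. The 3-bp deletions held the difference in the share with at least 2 bases, while the share without any was not computed without them. With them left out (a setting added after the data were seen), the share with at least 2 bases was 29.7% with sgRNA1 and 30.7% with sgRNA2, a difference of 0.917 points in the other direction, with sgRNA2 higher at 20 IRs and lower at 16. Within size classes the direction varied. From 4 to 9 bp the share was 24.4% ± 4.85 with sgRNA1 and 21.1% ± 2.71 with sgRNA2, lower with sgRNA2 at 29 of 36 IRs. Most of these microhomology reads came from a single deletion per guide, on which this direction rests. The loss of CCGCCG gave 3996 of 4255 with sgRNA1, and the loss of CTCTCGGCA gave 3376 of 5537 with sgRNA2. From 10 to 19 bp the share was 44.6% ± 5.73 with sgRNA1 and 65.8% ± 5.18 with sgRNA2, higher with sgRNA2 at 36 of 36 IRs. At 20 bp or more it was 67.1% ± 6.93 and 53.2% ± 7.52, lower with sgRNA2 at 34 of 36. Of the 10 most frequent deletions of each guide, 5 had at least 2 bases of microhomology with sgRNA1 and 2 with sgRNA2, while 1 and 5 had none.

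The order of IRs by microhomology share was only loosely kept between guides. Over 36 IRs, r was 0.206 and rho 0.300, and r was 0.139 once BC_31 and BC_32, the IRs farthest from the sgRNA1 median, were left out. Without BC_26, r was 0.385. Of the 24 IRs above the mean with sgRNA1, 15 were among the 17 above the mean with sgRNA2. BC_26 had both the highest share with sgRNA1, 64.3% (61.6 to 67.1), and the lowest with sgRNA2, 22.2% (19.3 to 25.3). For the 3-bp share, r was 0.466 and rho 0.473, and r was 0.623 once BC_26 and BC_25, the IRs farthest from the sgRNA1 median, were left out.

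At the cut itself, a deletion was counted as bordering the 3|4 site by the share of its placements that do. By this weight, 31.7% ± 1.48 of single deletions bordered the 3|4 site with sgRNA1 and 40.0% ± 3.68 with sgRNA2, higher with sgRNA2 at 36 of 36 IRs (8.27 points, SD 3.14). Without 3-bp deletions, a setting added after the data were seen, the difference was 4.47 points. The direction depends on how ambiguous deletions are placed. At the deposited placement, the shares were 57.2% and 40.2%, and with any placement they were 74.6% and 45.1%, both lower with sgRNA2 at 36 of 36 IRs. The sites next to the cut had less weight than the 3|4 site with both guides. The 2|3 site had 18.6% ± 1.03 with sgRNA1 and 14.6% ± 1.09 with sgRNA2, and the 4|5 site 18.6% ± 1.31 and 13.9% ± 1.55.

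Deletions with a single placement avoid this ambiguity. They were 15.5% ± 1.20 of single deletions with sgRNA1 and 40.7% ± 2.27 with sgRNA2. Of these, 58.3% ± 3.84 bordered the 3|4 site with sgRNA1 and 61.0% ± 3.59 with sgRNA2. These close shares include the most frequent deletion of the kind, which borders the site with each guide. It was the loss of CC with sgRNA1 (4474 of 14309 reads) and of CG with sgRNA2 (5115 of 29034). Single-placement deletions ran from the 3|4 site toward the PAM-distal side in 44.6% ± 4.67 with sgRNA1 and 51.6% ± 3.34 with sgRNA2, and toward the PAM in 13.7% ± 3.37 and 9.45% ± 1.77. In both samples, deletions from the cut to 1 side thus ran mostly toward the other guide's cut. With sgRNA1 this direction rests on the loss of CC. That deletion gave 4474 of the 6407 reads on the PAM-distal side, while 1911 reads ran toward the PAM. Those that removed bases on both sides of the cut were 26.5% ± 4.13 and 26.0% ± 3.42. Among the 10 most frequent sgRNA2 deletions, the 5 without microhomology, of 2, 3, 4, 5 and 7 bp, all ended at the 3|4 site and lay on its PAM-distal side. The loss of CC with sgRNA1 did so too.

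**Figure D4:**
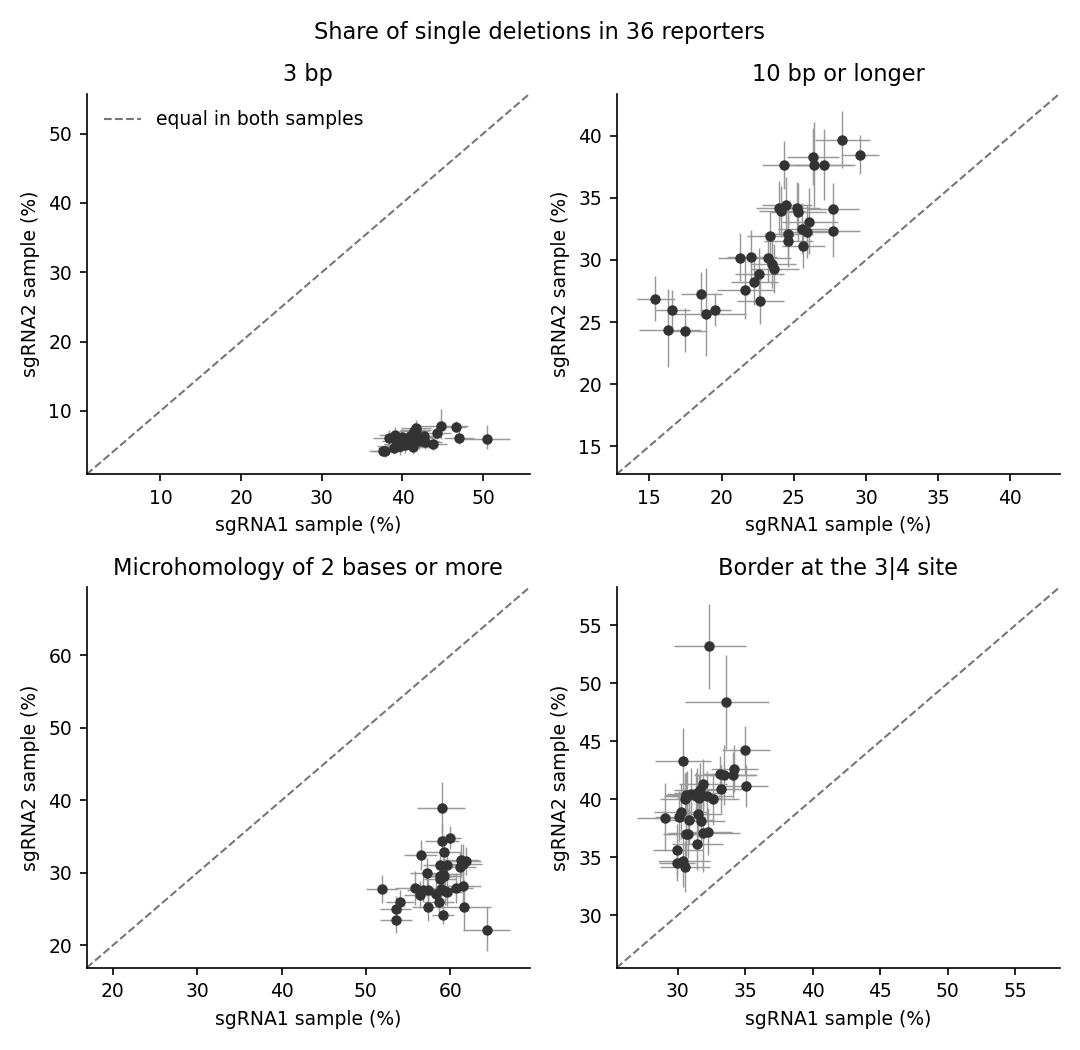
Share of single deletions per IR that were 3 bp, were 10 bp or longer, had at least 2 bases of microhomology or bordered the 3|4 site (weighted over placements), with sgRNA1 on the horizontal and sgRNA2 on the vertical axis. Points are 36 IRs with 95% Wilson intervals and the dashed line marks equal values. For the 3|4 border the intervals treat the weighted sums as if they were read counts. Every point is below the line for 3 bp and microhomology and above it for the other measures.

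Insertions were more frequent with sgRNA2 but of much the same sizes. Insertions of 1 bp were 78.4% ± 7.15 of single insertions with sgRNA1 and 78.3% ± 4.17 with sgRNA2. Of these, 90.3% ± 3.45 and 91.5% ± 2.82 could be placed at the 3|4 site. Read on each guide's own strand, the inserted base was G in 61.8% ± 7.89 with sgRNA1 and 73.2% ± 5.28 with sgRNA2. The difference was 11.4 points (SD 10.9), with sgRNA2 higher at 31 of 36 IRs, but only 9 IRs had intervals apart, with 38 to 217 insertions of 1 bp per IR with sgRNA1 and 81 to 477 with sgRNA2. In reads that begin with the base pair CT alone, the difference was 4.99 points, with sgRNA2 higher at 25 IRs and lower at 9. Inserted C made up 15.4% ± 5.32 and 11.7% ± 3.76, A 12.8% ± 5.91 and 5.88% ± 2.40, and T 9.97% ± 4.06 and 9.24% ± 3.16. Over the inserted bases of insertions of all sizes, G was 39.9% with sgRNA1 and 39.8% with sgRNA2. Over those of insertions of 2 bp or more alone, a setting added after the data were seen, it was 29.4% and 20.8%, lower with sgRNA2 at 32 of 36 IRs.

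For sgRNA1 the bases on either side of the cut differ, and the inserted base most often matched the PAM-distal one. Base 4 and its neighbour on the PAM-distal side are both G, so an added G cannot be assigned to the 3|4 site alone. An insertion that repeats base 4 at the 3|4 site was 59.7% ± 7.99 of its 1-bp insertions, and one that repeats base 3 was 11.6% ± 4.90. For sgRNA2 bases 3 and 4 are the same, so the 72.3% ± 5.31 that repeat them cannot be told apart. The most frequent insertion of 2 bp or more was CC with sgRNA1, which on its own strand is GG, with 15.4% (13.3 to 17.8) of 960 such reads. With sgRNA2 it was CG, with 11.1% (9.79 to 12.7) of 1839. CC was seen in 0 of the 1839 such reads of the sgRNA2 sample, which allows a share of up to 0.163%, and CG in 0 of the 960 of the sgRNA1 sample, which allows up to 0.312%.

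Reads with lesions at both cuts set the samples apart in 1 direction. This comparison was made after the reads were seen. It counts reads with exactly 2 lesions, of which 1 lies within 2 bp of the sgRNA1 cut and the other within 2 bp of the sgRNA2 cut. In the sgRNA2 sample there were 3677 such reads, 2.17% (2.11 to 2.24) of all and 4.11% of the mutated ones, and they occurred at 36 of 36 IRs, from 1.01% at BC_30 to 3.72% at BC_34. In the sgRNA1 sample there were 156, or 0.0788% (0.0673 to 0.0921). By deposited class, 2352 of the 3677 were deletions, 1249 complex and 76 insertions, so they were 23.2% of the complex reads with sgRNA2, against 1.36% with sgRNA1.

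A lesion at the sgRNA1 cut went together with a lesion at the sgRNA2 cut. These reads were set against reads with 1 lesion, at one cut alone, and wild-type reads, leaving out other reads with 2 or more lesions, reads with lesions elsewhere and deletions that reach both cuts. In the sgRNA2 sample, 5.01% (4.86 to 5.17) of the 73379 such reads with a lesion at the sgRNA2 cut carried another one at the sgRNA1 cut. Of the 79827 that were wild-type or had a lesion at the sgRNA1 cut alone, 0.169% (0.143 to 0.200) had that lesion. The first share was the higher at 36 of 36 IRs. In the sgRNA1 sample the same shares, for lesions at the sgRNA2 cut, were 0.177% (0.151 to 0.207) and 0.148% (0.126 to 0.175).

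The lesions at the sgRNA1 cut in these reads resembled the spectrum in the sgRNA1 sample, with departures. The loss of CCG made up 43.7% (42.1 to 45.3) of them, against 42.8% of the lesions near the sgRNA1 cut in the sgRNA1 sample. The loss of CCGCCG made up 5.52% (4.83 to 6.31) against 4.54%, of C 5.09% (4.42 to 5.84) against 6.44%, and of CC 3.54% (2.99 to 4.18) against 5.08%. Others that departed were the loss of CGGGATC, 0.517% (0.331 to 0.806) against 1.10%, an 18-bp deletion, 0.571% (0.374 to 0.872) against 1.19%, and the loss of G, 1.63% (1.27 to 2.09) against 0.974%. Of the 15 most frequent lesions of the sgRNA1 sample, 5 had their share there within the interval, 6 were less and 4 more frequent in these reads. Over the 65 lesions with at least 100 reads in the sgRNA1 sample, the shares had an r of 0.997, which the repeat deletion dominates, and a rho of 0.867. These points share the reporter sequence. As a single lesion, the loss of CCG was seen in 17 reads of the sgRNA2 sample.

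The share of reads with the added lesion differed by what the sgRNA2 lesion had left of the sgRNA1 target. The sgRNA2 cut lies at the PAM-distal end of that target, so small lesions there leave most of it in place. Counted from the sgRNA1 PAM up to the first mismatch, reads with 18 matching bases had a lesion at the sgRNA1 cut in 12.1% (11.6 to 12.6), with 19 in 13.6% (12.9 to 14.4) and with all 20 in 13.0% (10.6 to 15.9). With 17 bases the share was 9.95% (8.79 to 11.2), with 16 it was 1.13% (0.930 to 1.38), and with 15 it was 0.459% (0.315 to 0.666). Grouped, 17 or more matching bases gave 12.4% (12.0 to 12.8) of 27944 reads, and 16 or fewer gave 0.469% (0.410 to 0.536) of 45435. Over IRs the first share was 12.1% ± 3.07, from 4.26% at BC_36 to 16.6% at BC_27, and the second 0.482% ± 0.283.

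Named lesions at the sgRNA2 cut show the same step. Reads that lost a G at the sgRNA2 cut, which leaves 18 matching bases, had a lesion at the sgRNA1 cut in 12.5% (11.8 to 13.2) of 9180. Reads with an added G, which leaves 19, had one in 13.2% (12.4 to 14.2) of 5464. Reads that lost CG, 1 base more than the loss of G, were left with 16 matching bases and had one in 0.370% (0.237 to 0.577) of 5135. Among the other frequent sgRNA2 deletions, the share was 0.0400% (0.00707 to 0.226) for CTCG, which leaves 14 matching bases. It was 0.530% (0.279 to 1.00) for TCG, which leaves 15, and 2.09% (1.52 to 2.87) for CGGCAT, which leaves 16. The loss of CG and of CGGCAT thus differed in share with the same number of matching bases.

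The reverse was not seen in the sgRNA1 sample. The loss of a CCG unit leaves all 20 bases of the sgRNA2 target matching, and 0.0769% (0.0536 to 0.110) of those 37691 reads had a lesion at the sgRNA2 cut. Over all lesions at the sgRNA1 cut, the share was 0.112% (0.0877 to 0.142) with 17 or more matching bases and 0.310% (0.252 to 0.380) with 16 or fewer. Whether sgRNA1 was present in the cells of the sgRNA2 sample was not tested. The mutation, deletion, insertion and complex frequencies given above for sgRNA2 include the reads with a lesion at each cut, but the classes hold them unequally. Of reads with a 1-bp insertion at the sgRNA2 cut, 995 of 7388 also had a lesion at the sgRNA1 cut. Only 76 of all reads with a lesion at each cut were in the insertion class.

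**Figure D5:**
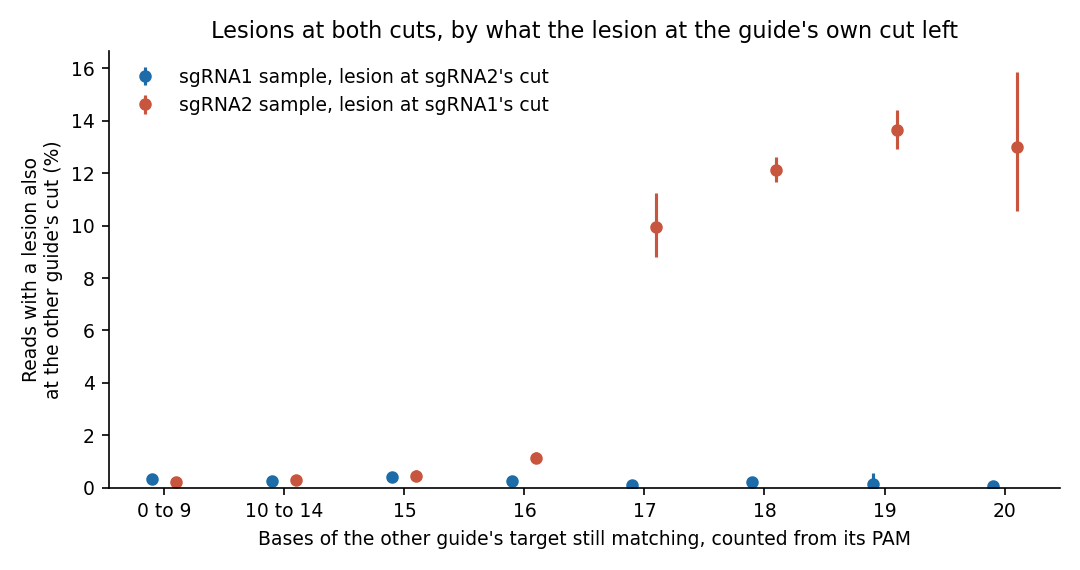
Percentage of reads with a lesion at the guide's own cut that also carry a lesion at the other guide's cut, by the number of bases of the other guide's target that still match, counted from its PAM. Points are pooled reads of 36 IRs with 95% Wilson intervals. In the sgRNA2 sample the share goes from 1.13% at 16 bases to 12.1% at 18, and in the sgRNA1 sample it stays under 1%.

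Reads called wild-type also differed beside the sgRNA2 cut. Over the 4 bases around that cut, 1.10% ± 0.144 of bases in wild-type reads were mismatched with sgRNA1 and 1.56% ± 0.242 with sgRNA2, higher with sgRNA2 at 34 of 36 IRs. Around the sgRNA1 cut the values were 1.09% ± 0.138 with sgRNA1 and 1.07% ± 0.203 with sgRNA2, with sgRNA2 higher at 16 IRs and lower at 20. Over 52 other bases they were 1.59% ± 0.129 and 1.75% ± 0.176, with sgRNA2 higher at 29 of 36. The part of sequencing error in these values was not tested.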

How the data were processed

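The authors parsed each amplicon read for its barcode, aligned it semi-globally to the reporter, and deposited its lesion class, changed bases, position, alignment and, for part of the reads, an alignment score. Cas9 assays were done in triplicate and merged. Reads of the 36 barcodes listed for the cell line were used, 97.2% of the reads in each sample. Lesions were read from the deposited alignments, and every placement that leaves the same sequence was found. Shares were computed per IR, subtracted (sgRNA2 minus sgRNA1) and averaged, with 95% Wilson intervals and no test, since each guide has 1 sample. Guide sequences came from the study's oligonucleotide table. IR positions are on mm9, annotated with GENCODE vM1 (NCBIM37). Python 3 with pandas and numpy was used, checked on simulated data.

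Named were the IRs with the highest and lowest mutation frequency over both guides and the highest and lowest difference in each lesion class, the 10 most frequent deletions per guide, each inserted base of 1-bp insertions, the most frequent longer insertion and deletion sizes of 1 to 10 bp. Other IRs and lesions were named after their values were seen. The members and lists were chosen with earlier results of these data known. Alternatives covered averaging, alignment score, extreme IRs, first bases of the reads, placement, size and microhomology limits. Left out were 2 count columns of the IR table, from samples of another study.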

Additional observations from a re-analysis of the deposited data

Results flagged for a closer look

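Reads whose barcode is not among the 36 were in no comparison and held lesions as well. They were 5700 reads with sgRNA1, of which 55.2% (53.9 to 56.5) were mutated, and 4861 with sgRNA2, of which 53.7% (52.3 to 55.1) were. Of these, 1164 and 1071 reads had a barcode that differs by 1 base from a listed one. The same single barcode, which does not, gave 3784 reads with sgRNA1 and 2896 with sgRNA2, where the next one had 11 and 12. Its reads were mutated in 61.0% (59.5 to 62.6) and 61.6% (59.9 to 63.4), with 2.35% and 5.32% insertions. What it marks was not tested.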

How the results depend on the processing

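Of 79 values under alternatives, 73 kept their direction, and 47 of them moved less than counting error allows. Pooling reads and leaving out BC_35 and BC_26 moved none beyond it. Without reads of low alignment score, the sgRNA2 minus sgRNA1 difference was 1.29 points for mutation, 1.06 for complex, -36.2 for the 3-bp share, 6.47 for 10 bp or longer, -31.6 for microhomology and 9.69 for the 3|4 border. This setting takes out mutated reads above all, since few wild-type reads have a score (25.9% with sgRNA1, 27.2% with sgRNA2) and complex reads score lowest. Its limit was 164 with sgRNA1 and 155 with sgRNA2, and it left complex frequencies of 0.238% and 1.30%. Without complex reads, all of which count as mutated, mutation was at 1.12. Reads with first base pair AG alone gave 2.14 for mutation and -30.3 for microhomology. Those with CT gave 1.54 for complex, -36.2 for 3 bp, 8.67 for 10 bp or longer, -30.3 for microhomology and 4.99 for inserted G. Those with TA gave 1.37 for mutation, -3.03 for deletion, -35.2 for 3 bp and 7.58 for 10 bp or longer. A limit of 20 bp gave 3.70. Microhomology of at least 1 base gave -25.2 and of at least 3 bases -40.3.

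The 3|4 border difference turned to -17.0 at the authors' placement and -29.5 with any placement, settings that differ only in how ambiguous deletions are placed. Inserted G turned to -0.187 over insertions of all sizes, and the cause was not tested. Chosen after seeing the data were the settings without reads lesioned at both cuts (mutation 0.796, deletion -3.09, complex 0.766), without deletions reaching over 14 bases before the cut (10 bp or longer 4.88) without insertions of 1 bp (inserted G -8.57) and without 3-bp deletions (10 bp or longer -6.49, microhomology 0.917, 3|4 border 4.47). The first takes out mutated reads alone, 3677 with sgRNA2 and 156 with sgRNA1. The last takes 41.6% of single deletions out of the sgRNA1 denominator. The guides were paired by IR, but replicates could not be paired, because each guide has 1 sample with its replicates merged.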

Other observations

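Complex reads differed in make-up. With sgRNA1, 34.3% of 3456 complex reads held exactly 2 lesions, and with sgRNA2, 50.9% of 5394. Their median alignment score was 98.5 and 132. Reads began with 1 of 4 common base pairs in nearly all cases. Over these pairs, mutated reads were between 50.6% and 51.1% with sgRNA1 and between 52.4% and 53.1% with sgRNA2. The 1.54% of reads with other first pairs, the same share in both samples, were mutated in 68.1% and 67.6%, and complex in 25.0% (23.5 to 26.6) and 22.2% (20.6 to 23.8).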
